A study of Mus musculus with 56 samples.

Results

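Microglia are the resident macrophages of the brain. They enter the brain before birth, divide while the cortex grows and settle into a stable, branched population by young adulthood. The cells described here are the non-dividing microglia of wild-type mouse cortex at postnatal day 9 (P9) and postnatal day 28 (P28), 8739 cells of the 11424 barcodes in 4 wild-type droplet libraries and of the 15507 barcodes in the whole droplet matrix. A barcode was kept when it held at least 500 genes, under 10% mitochondrial UMIs (unique molecular identifiers, each counting 1 captured transcript), fewer than 8 UMIs summed over 6 genes of border-associated macrophages (Pf4, Lyve1, F13a1, Ms4a7, Cbr2 and Cd163), 0 UMIs of 6 genes of mitosis (Mki67, Top2a, Ube2c, Birc5, Ccnb2 and Cdc20) and at least 1 UMI of C1qa. The members were thus chosen by their measured UMIs of these genes, which are given only as a description. The UMIs of the kept cells were summed per library, and P28 was compared with P9.

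The study profiled microglia across ages, an interleukin-33 receptor genotype, cultures and sorted fractions, and only its droplet 3' single-cell libraries are used here. Each age has 2 libraries from mice with a B6 strain background and the wild-type genotype, and the titles of all 4 carry the same prefix, which reads as a date. The 4 further droplet libraries, 2 from P9 mice heterozygous for ST2 (ST2 Het), the receptor of interleukin-33, and 2 from P9 ST2 knockouts, carry another such prefix and entered the fit only to share its estimate of the spread. Their ST2 Het values are shown beside some genes as P9 libraries of that other prefix. The sources used here do not say whether the 2 libraries of an age came from separate animals or from pools, so the p-values measure only the spread between these libraries. The series' text speaks of 9391 cells sorted for intermediate CD45 and CD11b across both ages. The files hold 11424 barcodes for these 4 libraries, and 11276 of them passed the limits on genes and mitochondrial UMIs.

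Postnatal microglia clear dying cells and synapses, take up and export lipid, and rely on colony-stimulating factor and TGF-beta signals from neighbouring cells for their identity. In rodents the cortical population multiplies during the first postnatal weeks and then stops. Adult microglia are known for high levels of surface and secreted genes such as Tmem119, P2ry12 and Cst3, often called homeostatic genes.

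The step on mitosis genes set the 2 ages apart most. It removed 38.2% and 40.1% of the microglia of the 2 P9 libraries, and 0.835% and 0.784% of those at P28. With every cell thinned at random to 1000 UMIs, 21.9% and 23.8% of P9 microglia and 0.28% and 0.31% of P28 microglia held a UMI of these genes. The border-macrophage step removed 242 and 219 barcodes at P9 against 53 and 46 at P28. In all, 1614 and 1363 cells were kept at P9 (55.0% and 53.9% of barcodes) and 2850 and 2912 at P28 (96.4% and 96.8%). These shares are set by the rule and are given as a description.

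The kept cells were deeper at P9. The median cell held 3505 and 3759 UMIs and 1528 and 1581 genes at P9, and 2304 and 2235 UMIs and 1160 and 1117 genes at P28. The summed libraries held 5951168 and 5398605 UMIs at P9 and 7416934 and 7431341 at P28. Any pair of these libraries shared 2 to 12 cell barcodes. Xist was similar in both ages (2359 and 2218 CPM at P9, 2391 and 2446 CPM at P28, where CPM is UMIs per 1000000 of the TMM-scaled library total), and no UMI of the Y-linked Eif2s3y was found in the 4 libraries. Of 6 tested sex-linked genes none was called higher or lower, and Eif2s3y was the only 1 at 0 UMIs in these libraries. Eif2s3y passed the filter of the fit on all 8 droplet libraries, so its UMIs lay in ST2 libraries. Whether those libraries differ from the wild-type ones in sex was not tested.

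The label was checked on P2ry12, Tmem119 and Cst3. Of the cells thinned to 1000 UMIs, 94.2% and 94.7% held a UMI of P2ry12 at P9 and 97.0% and 97.0% at P28. Tmem119 was found in 63.0% and 64.5% of P9 cells and 93.6% and 93.5% of P28 cells. As a background, 42 cells with fewer than 3 C1qa UMIs and at least 10 UMIs of leukocyte markers were thinned in the same way, and 16.7% of them held P2ry12 (exact 95% interval 7.0% to 31.4%) and 14.3% held Tmem119 (5.4% to 28.5%). The endothelial cells planned as background numbered 4 and are not used. P2ry12 and Tmem119 were thus found in a larger share of cells than this background in all 4 libraries. Cst3 was found in all but 1 of the thinned cells of the 4 libraries, but also in 97.6% of the background cells (87.4% to 99.9%), so its share does not mark the cells as microglia. Intervals of this kind cover counting error only.

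Cells of other types were rare among the kept cells and were not equal between the ages. Summed over 10 neutrophil markers, the level was 83.8 and 170.1 CPM at P9 and 1600 and 654 CPM at P28. At P28, 83.4% and 65.1% of these UMIs lay in 13 and 5 cells with at least 20 of them. In the second P9 library 51.0% lay in 1 such cell. Monocyte markers summed to 26.6 and 43.3 CPM at P9 and 179.9 and 122.1 CPM at P28, with 17 and 16 P28 cells at 20 UMIs or more. Endothelial markers summed to 111.8 and 91.0 CPM at P9 and 11.1 and 19.04 CPM at P28. Markers of T, NK and B cells summed to 153.2 and 144.7 CPM at P9 and 108.9 and 102.2 CPM at P28, with Cd3e and Cd8a at 0 UMIs. Yet 2 of its 3 tested members were higher at P28 and 1 was lower. Cells with at least 20 UMIs of this list numbered 1 and 0 at P9 and 4 and 3 at P28. These P28 cells held 27.6% and 27.8% of the UMIs of the list. Astrocyte, neuronal, choroid plexus, mural and oligodendrocyte precursor lists each summed to at most 26.5 CPM in all 4 libraries. Markers of mature oligodendrocytes summed to 660.7 and 593.9 CPM at P9 and 970.5 and 998.7 CPM at P28, most of it Trf, the iron carrier transferrin, at 555 and 492 CPM at P9 and 848 and 871 CPM at P28. Of 4 tested members, Trf and Mag were higher (log2 fold changes 0.71 and 0.76), Mbp and Cnp did not pass, Mobp and Ermn were at 0 UMIs, and no cell held 20 UMIs of the list. The part of these cell types in the results below was not tested beyond leaving out cells. Leaving out the cells with at least 20 UMIs of any of these lists (3 and 6 cells at P9, 34 and 24 at P28) is given below for some lists and genes, not for every result that it moved.

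Of 11023 genes tested with edgeR, leaving out the marker genes of the rule but not the genes of mitochondrial DNA, 2562 (23.2%) were higher at P28 and 2494 (22.6%) were lower, at an adjusted p under 0.05. The rule caps the share of the 13 genes of mitochondrial DNA. The 10 of them among the 2494 are not read as a result. At least 2-fold differences numbered 647 higher (5.87%) and 669 lower (6.07%). The median log2 fold change of all genes tested was 0.05. These shares are the background for the counts of gene lists below. Since total UMIs per cell differ between the ages and values are relative to the library, less RNA of a gene per cell and more RNA of other genes cannot be told apart from CPM alone.

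**Figure D1:**
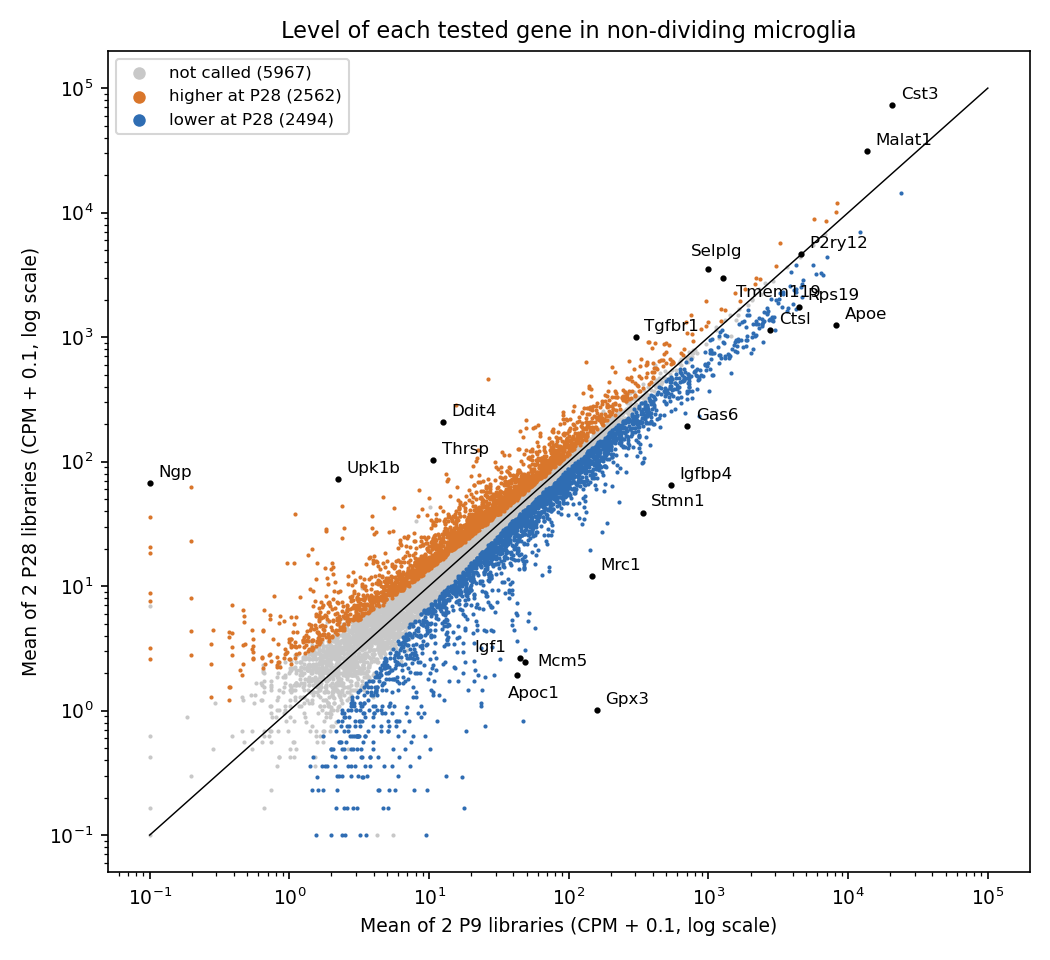
Mean level of each of 11023 tested genes in the 2 P9 libraries (horizontal) and the 2 P28 libraries (vertical), both in CPM plus 0.1 on log scales, with the line of equal levels. Orange genes were higher and blue genes lower at P28. Cst3 lies far above the line at the top right, P2ry12 lies on it, and Gpx3 lies farthest below it among the labelled genes.

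Cst3, which encodes cystatin C, a secreted inhibitor of cysteine cathepsins (chr2:148871722-148875692, minus strand, GRCm38), was the most abundant transcript of these cells at P28. Its level was 20750 and 20746 CPM in the P9 libraries and 73286 and 73350 CPM in the P28 libraries. The ages were far apart and the libraries of an age nearly coincided, and the log2 fold change, given with its SE here and below, was 1.82 ± 0.02 at an adjusted p of 1.3e-14. The mean cell held 74.5 and 79.1 Cst3 UMIs at P9 and 197.7 and 191.8 at P28, although the P28 cells held fewer UMIs in all. Cst3 alone took a median of 1.9% of the UMIs of a P9 cell and 7.6% and 7.5% of those of a P28 cell.

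Tmem119, a membrane protein used to tell microglia from other brain macrophages (chr5:113793729-113800516, minus strand, GRCm38), rose from 1284 and 1275 CPM to 2939 and 3006 CPM (log2 fold change 1.22 ± 0.04, adjusted p = 1.4e-10). Both ST2 Het libraries, at 1255 and 1275 CPM, were at the P9 level. P2ry12, the ADP receptor that guides microglial processes, did not pass the test. It stood at 4599 and 4643 CPM at P9 and 4612 and 4683 CPM at P28, and the ages overlapped (log2 fold change 0.01 ± 0.03, adjusted p = 0.86). The 3 marker genes of the label therefore did not move together.

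Of 28 tested homeostatic surface and secreted genes (30 listed), 20 were higher and 3 lower at P28, with a median log2 fold change of 0.41. Selplg, which encodes the adhesion ligand PSGL-1, rose from 995 and 989 to 3504 and 3558 CPM (log2 fold change 1.83 ± 0.05, adjusted p = 1.4e-11). Lrba, a vesicle trafficking protein, rose from 52.6 and 45.4 to 213 and 219 CPM (2.13 ± 0.08, adjusted p = 3.4e-10). Upk1b, a tetraspanin (chr16:38773184-38800328, minus strand, GRCm38), was near absent at P9, with 1.38 and 2.89 CPM, and reached 69.3 and 75.4 CPM at P28 (5.09 ± 0.19, adjusted p = 2.7e-10). These 3 genes did not overlap between the ages, as was so for 39.9% of all genes tested with P28 above and 34.3% with P28 below, and the ST2 Het libraries lay on the P9 side for each. In thinned cells, a Upk1b UMI was found in 0.12% and 0.073% of P9 cells and 6.21% and 6.97% of P28 cells. The highest of the 5 members that did not pass were P2ry12 and Fcrls, an Fc receptor-like gene at 3002 and 2785 CPM at P9 and 2846 and 2834 CPM at P28. The rise of the list was thus carried by some of its members and not by its best-known receptor.

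Of 19 tested transcription factors of microglial identity, 15 were higher and 4 lower (median 0.55). Cebpa, a myeloid lineage factor, rose from 147 and 140.1 to 377 and 392 CPM (1.42 ± 0.08, adjusted p = 9.4e-09). Ets1 and Irf5, the latter a factor of inflammatory macrophage genes, rose by less, with log2 fold changes of 0.94 ± 0.11 and 0.90 ± 0.06 (adjusted p = 1.4e-05 and 9.1e-08).

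TGF-beta acts on microglia through Tgfbr1, Tgfbr2 and SMAD proteins. Of 14 tested members of this pathway, 11 were higher and 1 lower (median 0.64). Among the receptors, Tgfbr1 rose from 307 and 296 CPM to 984 and 1014 CPM (1.73 ± 0.06, adjusted p = 1.0e-10). Among the inhibitors, Smad7 rose from 32.1 and 30.4 to 85.3 and 89.7 CPM (1.48 ± 0.08, adjusted p = 1.1e-08), and the ST2 Het libraries stood between the ages at 56.3 and 61.9 CPM. The co-repressor Ski rose from 57.3 and 61.6 to 110.3 and 119 CPM (0.95 ± 0.08, adjusted p = 2.8e-07). Tgfbi, a secreted protein named for its induction by TGF-beta, was the member that fell, from 40.5 and 38.9 to 19.1 and 22.5 CPM (-0.93 ± 0.11, adjusted p = 1.6e-05). Receptor and inhibitors thus rose together while Tgfbi fell. The count of higher members was 7 without the second P9 library or without the second P28 library.

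**Figure D2:**
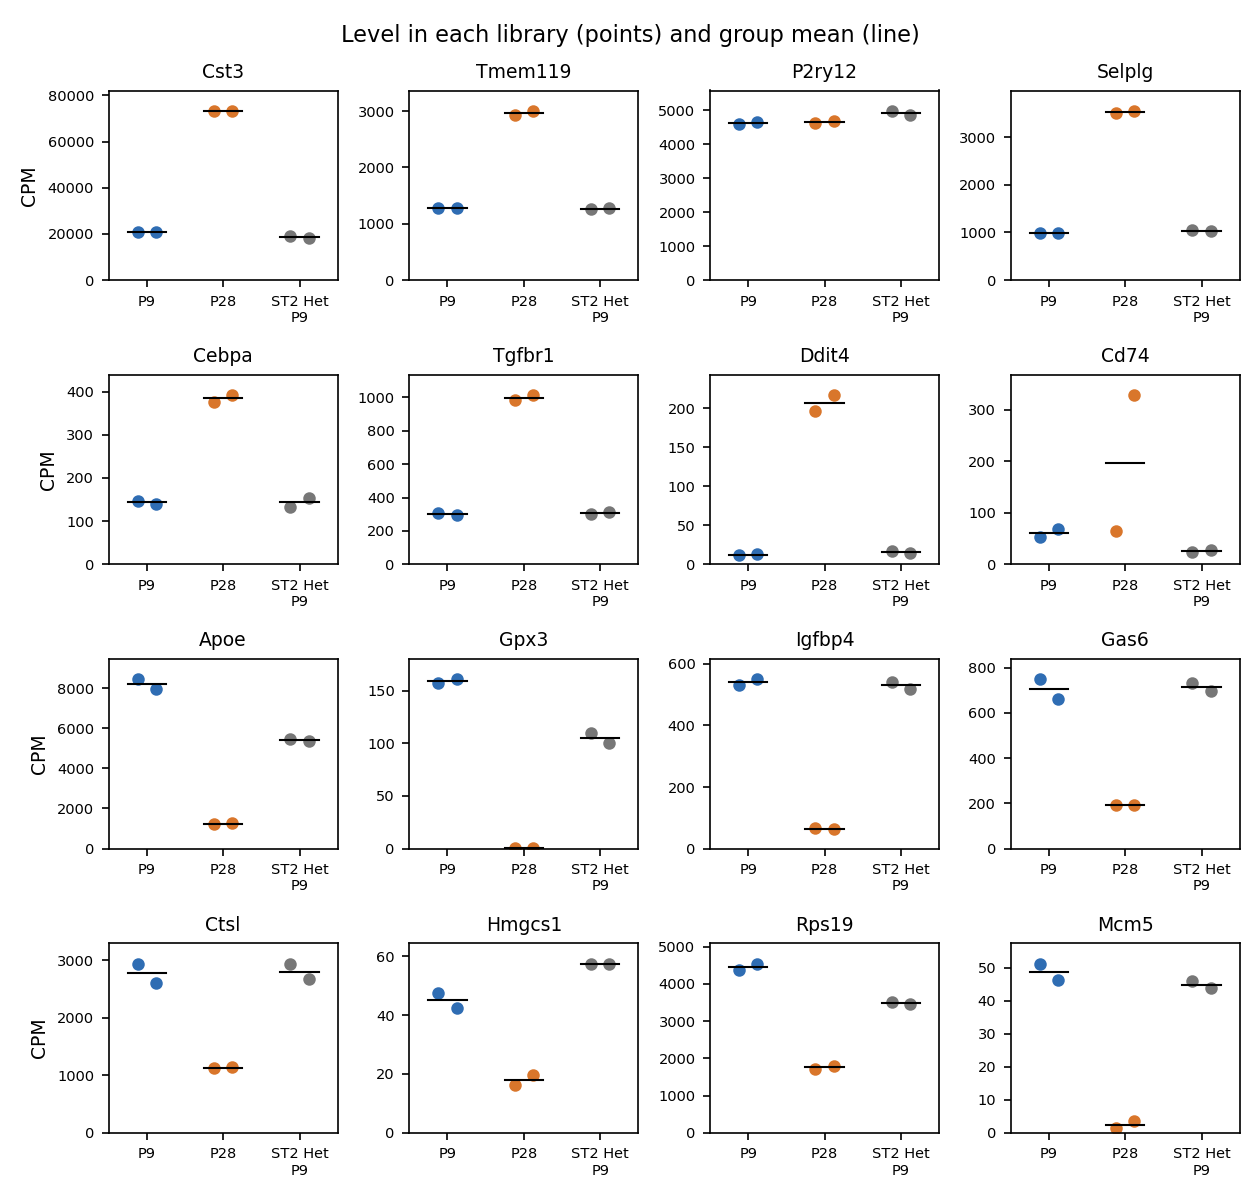
Level in CPM (vertical, from 0) of 16 genes in each library, with 2 points for each of P9, P28 and ST2 Het P9 and a line at the group mean. The ST2 Het libraries lie near P9 for most genes, but lie between the ages for Apoe, Gpx3 and Rps19 and above P9 for Hmgcs1. Cd74 is high in 1 of the 2 P28 libraries (328 CPM against 64.4 CPM).

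Genes of the phagocytic state of early postnatal microglia, many of which reappear in disease-associated microglia of older brains, moved in both directions. Of 25 tested members, 13 were lower and 6 higher at P28 (median -0.26). The median was -0.48 without the second P9 library and -0.42 without the first P28 library. Apoe, the main lipid carrier of the brain (chr7:19696109-19699188, minus strand, GRCm38), fell from 8455 and 7964 CPM to 1220.1 and 1259.6 CPM (-2.73 ± 0.04, adjusted p = 1.1e-13). The ST2 Het P9 libraries held 5458 and 5375 CPM, below P9 and above P28. Igf1, a growth factor for neurons and oligodendrocytes, fell from 46.7 and 42.9 to 2.47 and 2.63 CPM (-4.12 ± 0.22, adjusted p = 5.7e-09), with the ST2 Het libraries again between, at 16.1 and 15.5 CPM. Spp1, which encodes osteopontin, fell from 58.5 and 26.5 to 5.59 and 1.44 CPM (-3.59 ± 0.48, adjusted p = 3.6e-05), but the ST2 Het libraries, at 4.88 and 15.8 CPM, overlapped P28. Its P9 level lay in few cells. Without thinning, 4.71% and 4.04% of P9 cells held Spp1, with means of 0.21 and 0.10 UMIs per cell. The highest single P9 cells held 197 and 34 Spp1 UMIs. Lpl, lipoprotein lipase, fell from 191 and 188 to 29.5 and 34.8 CPM (-2.56 ± 0.09, adjusted p = 1.4e-10), and there the ST2 Het libraries were at the P9 level (201 and 206 CPM). The signalling adaptor Tyrobp, at 4541 and 4535 CPM at P9 and 4412 and 4436 CPM at P28, did not pass the test.

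Apoe was spread unevenly over cells at both ages. The 5% of cells with most Apoe held 39.8% of all Apoe UMIs in each P9 library and 40.5% and 42.0% at P28. A UMI of Apoe was found in 81.7% and 81.6% of thinned P9 cells, in 45.0% and 44.2% of thinned P28 cells and in 40.5% of the leukocyte-marker cells (25.6% to 56.7%), so the P28 share is near this background. Border-associated macrophages with at least 12 UMIs of the 6 border genes, compared after the data were seen, held 40320 and 38444 CPM of Apoe at P9 and 37697 and 48400 CPM at P28. The kept P9 microglia thus stood at 20.4% and 19.9% of the border level for Apoe. In the same libraries, microglia with 2 or more mitosis UMIs held 4361 and 4467 CPM of Apoe, less than the 8236 and 7668 CPM (unscaled) of the non-dividing microglia beside them.

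Several genes that are also high in border macrophages fell in microglia with age. Of 6 tested border-macrophage markers outside the rule, 4 were lower, 1 was higher and 1 did not pass. The summed level of that list was 414.7 and 408.0 CPM at P9 and 321.0 and 335.6 CPM at P28. Gpx3, a secreted glutathione peroxidase (chr11:54902453-54910377, plus strand, GRCm38) and the gene outside the lists that fell most, went from 157 and 161 CPM to 0.91 and 0.919 CPM (-7.40 ± 0.13, adjusted p = 2.0e-13). A Gpx3 UMI was found in 13.3% and 12.8% of thinned P9 cells and in 1 and 2 of the 2832 and 2882 thinned P28 cells. In border macrophages Gpx3 stood at 189.9 and 187.7 CPM at P9 and 216.6 and 307.3 CPM at P28. The unscaled microglial level was thus 80.7% and 82.4% of the border level at P9 and 0.44% and 0.31% at P28. Mrc1, the mannose receptor, fell from 147 and 147 to 11.6 and 12.3 CPM (-3.61 ± 0.09, adjusted p = 7.7e-12), and its microglial level was 7.45% and 7.19% of the border level at P9 and 1.24% and 1.18% at P28. Dab2, an endocytic adaptor, fell from 134 and 151 to 18.5 and 20.4 CPM (-2.88 ± 0.09, adjusted p = 9.9e-11), and Folr2, a folate receptor, from 27.6 and 22.1 to 1.69 and 1.84 CPM (-3.80 ± 0.22, adjusted p = 1.0e-08). With the limit on border genes lowered from 8 to 3 UMIs, the log2 fold changes of Mrc1 and Gpx3 were -3.67 and -7.73.

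Receptors and bridging proteins for dead cells were split. Of 27 tested, 12 were higher and 8 lower (median -0.03). The bridging protein Gas6, which links phosphatidylserine to TAM receptors, fell from 749 and 662 to 191 and 192 CPM (-1.88 ± 0.06, adjusted p = 1.4e-10). Its receptor Mertk rose from 111 and 103 to 253 and 257 CPM (1.25 ± 0.08, adjusted p = 1.9e-08), and Havcr2, the phosphatidylserine receptor TIM-3, from 51.8 and 46.2 to 122 and 126 CPM (1.34 ± 0.08, adjusted p = 2.6e-08). Bridge and receptor of this pair therefore moved in opposite directions. Sirpa, the receptor of the "do not eat me" signal CD47, did not pass (795 and 735 CPM at P9, 754 and 743 CPM at P28). Of 11 tested complement genes, 4 were higher and 2 lower. C1qb, a chain of the recognition molecule C1q, rose from 8282 and 8305 to 11768 and 11986 CPM (0.52 ± 0.03, adjusted p = 2.0e-08).

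Lipid transport genes, a list that also holds Apoe and Lpl, were more often lower. Of 18 tested, 11 were lower and 5 higher (median -0.45). Apoc1, an apolipoprotein encoded beside Apoe, fell from 38.1 and 46.2 to 1.95 and 1.71 CPM (-4.50 ± 0.22, adjusted p = 2.6e-09). Fabp5, a fatty acid carrier, fell from 21.6 and 22.5 to 4.16 and 5.38 CPM (-2.20 ± 0.29, adjusted p = 3.7e-05).

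Lysosomal genes moved apart by member. Of 41 tested, 21 were lower and 8 higher (median -0.22), yet the summed level of the list was 53110 and 49432 CPM at P9 and 48479 and 48664 CPM at P28. Among the cysteine cathepsins, which cystatin C can inhibit, Ctsl fell from 2944 and 2601 to 1121 and 1143 CPM (-1.29 ± 0.06, adjusted p = 1.2e-09) and Ctsb from 4857 and 4559 to 2141 and 2071 CPM (-1.16 ± 0.05, adjusted p = 4.9e-10). Ctsh rose from 399 and 385 to 805 and 831 CPM (1.06 ± 0.07, adjusted p = 3.0e-08). The aspartic protease Ctsd also rose, from 5951 and 5435 to 8992 and 8896 CPM (0.65 ± 0.05, adjusted p = 9.7e-08). Lamp1, a coat protein of the lysosomal membrane, fell from 2279.5 and 2109 to 1036 and 1036 CPM (-1.08 ± 0.05, adjusted p = 2.3e-09). Proteases of this organelle thus moved in both directions. Psap, the precursor of the saposins, and Laptm5 did not pass.

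Genes of sterol synthesis, which builds cholesterol from acetyl-CoA under the control of SREBP factors, fell together. Of 25 tested, 22 were lower and none higher (median -1.08), against 22.6% lower of all genes. Their summed level was 627.4 and 628.1 CPM at P9 and 329.8 and 326.1 CPM at P28. Idi1 fell from 20.4 and 22.7 to 5.46 and 4.86 CPM (-2.05 ± 0.18, adjusted p = 7.0e-07), and Cyp51, the lanosterol demethylase, from 31.1 and 30 to 7.28 and 7.48 CPM (-2.04 ± 0.15, adjusted p = 1.4e-07). Hmgcs1, an early enzyme of the pathway, fell from 47.6 and 42.5 to 16.3 and 19.6 CPM (-1.33 ± 0.11, adjusted p = 5.5e-07). The ST2 Het P9 libraries, at 57.5 and 57.3 CPM for Hmgcs1 and 42.7 and 50.6 CPM for Cyp51, were above the wild-type P9 libraries. At the low levels of this list 59.0% and 58.5% of thinned P9 cells and 72.1% and 72.0% of thinned P28 cells held no UMI of the list.

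The promoters of the list were searched for the letters TCACNCCAC, a form of the sterol element, on both strands of the 250 bases before the start (RefSeq, GRCm38.p6). Of 18 members with a promoter in the table, 1 held it, Hmgcs1, against 1.22% of 27025 genes. The stretch is shown because Hmgcs1 is one of the members that fell, with the match in capitals (Hmgcs1 chr13:119690174-119690262, plus strand).
Hmgcs1: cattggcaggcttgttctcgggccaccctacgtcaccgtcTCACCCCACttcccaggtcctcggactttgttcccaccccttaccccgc

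Ribosomal protein genes, which build the translating ribosome, were broadly lower. Of 81 tested, 69 were lower and none higher (median -0.83). Rpsa fell from 1511 and 1396 to 498 and 533 CPM (-1.50 ± 0.05, adjusted p = 1.8e-10), Rps2 from 2080.1 and 1977 to 733 and 759 CPM (-1.44 ± 0.05, adjusted p = 3.2e-10) and Rps19 from 4361 and 4548 to 1706 and 1804 CPM (-1.34 ± 0.04, adjusted p = 9.9e-11). The mean cell held 584.9 and 675.8 UMIs of the 81 genes at P9 and 260.1 and 261.0 at P28. UMIs of all genes per cell were also fewer at P28, 2602 and 2552 against 3687 and 3961 at P9. Whether a cell held less of this RNA was not tested. In thinned cells the genes took a median of 15.4% and 16.7% of UMIs at P9 and 9.5% and 9.6% at P28. Of P28 cells, 80.7% and 77.7% lay below the 10th percentile of P9 cells. Many of these genes have near-identical pseudogenes, which can take part of their reads, and single members are uncertain for that reason. Rps29, at 3843 and 7436 CPM at P9 and 5370.1 and 5630.5 CPM at P28, did not pass, and its P9 libraries differed more from each other than from P28.

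The rest of the translation apparatus followed. Of 34 translation factors, 27 were lower and 1 higher (median -0.82), with Eif3e at -1.22 ± 0.07, Eef1g at -1.15 ± 0.05 and the poly(A)-binding protein Pabpc1 at -1.09 ± 0.05 on the log2 scale (adjusted p = 1.5e-08, 1.1e-09 and 8.7e-10). Of 28 tested genes of ribosome assembly, 16 were lower and none higher (median -0.35). Myc, a growth regulator that drives ribosome production, fell from 35.2 and 38.3 to 11.7 and 11 CPM (-1.69 ± 0.12, adjusted p = 1.4e-07). The nucleolar protein Npm1 fell from 693 and 669.9 to 244 and 250.4 CPM (-1.46 ± 0.06, adjusted p = 5.8e-10).

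Nuclear-encoded respiration genes fell together. Of 77 subunits of the respiratory complexes, 64 were lower and none higher (median -0.52). ATP synthase subunit Atp5g3 fell from 168 and 176 to 82.3 and 82.7 CPM (-1.06 ± 0.07, adjusted p = 4.6e-08), and Cox5a, of complex IV, from 309 and 327 to 165 and 149 CPM (-1.02 ± 0.08, adjusted p = 1.4e-07). The rule caps the share of UMIs from mitochondrial DNA in a cell, so its 13 genes are described with no test. Their median log2 fold change was -0.68, mt-Co1 stood at 4006 and 4025 CPM at P9 and 1835 and 1885 CPM at P28, and the median cell held 2.83% and 2.92% at P9 and 1.64% and 1.60% at P28. In the tricarboxylic acid cycle and fatty acid oxidation, 21 of 29 were lower and 2 higher (median -0.44). Glycolysis and the pentose phosphate pathway were mixed, with 13 of 24 lower and 7 higher. Hk2, the first enzyme of glycolysis, rose from 77.3 and 115 to 203 and 239 CPM (1.21 ± 0.13, adjusted p = 6.3e-06), while Gpi1, the next one, fell from 220.5 and 217 to 111 and 115 CPM (-0.96 ± 0.07, adjusted p = 8.8e-08).

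**Figure D3:**
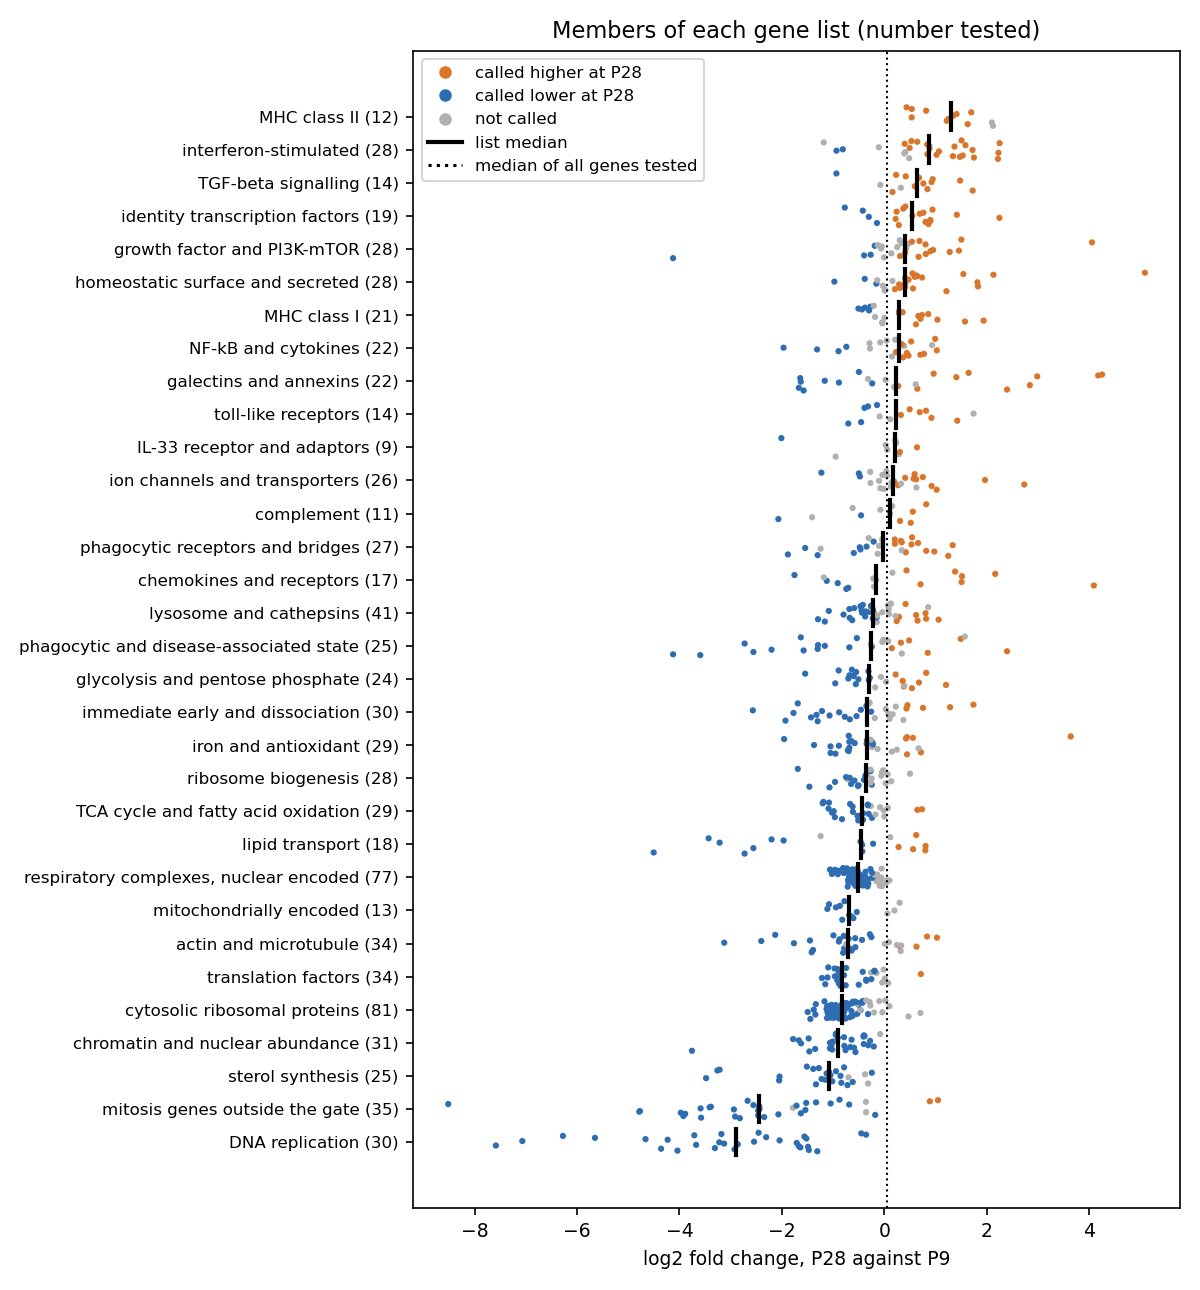
Log2 fold change of each tested member of 32 gene lists (horizontal), P28 against P9, with lists ordered by their median (black bar) and the number tested in parentheses. Orange members were called higher, blue lower and grey neither, and the dotted line is the median of all genes tested (0.05). The rule caps the share of the 13 mitochondrially encoded genes, so the colours of that list are not read as a result. DNA replication (median -2.89) and sterol synthesis (-1.08) lie far to the left, and MHC class II (1.30, or 0.62 without the second P28 library) and interferon-stimulated genes (0.88) to the right.

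Genes of the cytoskeleton were mostly lower. Of 34 tested, 24 were lower and 4 higher (median -0.70). Without the cells of other-type markers 26 were lower and 3 higher (median -0.74). Stmn1, which destabilises microtubules and is high in dividing cells, fell from 340.2 and 339 to 34.6 and 43.2 CPM (-3.13 ± 0.10, adjusted p = 8.6e-11). The actin-binding Tmsb4x, one of the most abundant transcripts at P9, fell from 24194 and 23798 to 14330 and 14666 CPM (-0.73 ± 0.03, adjusted p = 2.5e-10). Marcks, a membrane-bound actin regulator, did not pass (1628 and 1684 CPM at P9, 1642 and 1698 CPM at P28). Abundant nuclear and chromatin proteins fell almost as a whole, 30 of 31 lower and none higher (median -0.91), with Anp32b, a histone chaperone, from 177 and 181 to 59 and 57.1 CPM (-1.62 ± 0.07, adjusted p = 1.5e-09).

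All 30 tested DNA replication genes were lower at P28 (median -2.89). The rule removes cells with mitosis UMIs but not cells copying their DNA, so the replication genes are tied to the choice of cells and to how deeply each was read. Mcm5, of the helicase that opens DNA, fell from 51.2 and 46.2 to 1.3 and 3.41 CPM (-4.36 ± 0.21, adjusted p = 1.9e-09). Mcm6, of the same ring, fell from 53.6 and 47.5 to 4.68 and 5.51 CPM (-3.31 ± 0.15, adjusted p = 1.1e-09). Of cells thinned to the same depth, 13.5% and 12.99% at P9 and 0.883% and 1.11% at P28 still held 3 or more replication UMIs. Cells with any UMI of 13 replication and S-phase genes were then left out as well. This kept 607 and 515 cells at P9 and 2174 and 2177 at P28. Of 12 replication genes then tested, 5 were lower and 1 higher (median -0.79), beside 1416 lower and 1556 higher of all 9195 genes tested. The cyclin-dependent kinase inhibitor Cdkn1a, which stops the cell cycle, also fell, from 175 and 172 to 24.3 and 30.2 CPM (-2.67 ± 0.12, adjusted p = 8.8e-10).

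E2F factors switch on replication genes as a cell enters S phase. The letters TTTNGCGC, a form of the E2F site, were found on either strand in 4 of 24 promoters of the replication list (Mcm5, Mcm6, Pola1 and Uhrf1) and in 1.31% of 27025 genes. Mcm5 and Mcm6 are shown because both fell, and in each the capitals hold 2 matches that overlap on opposite strands, while the third match of Mcm6 lies outside the printed stretch (Mcm5 chr8:75109316-75109403, plus strand; Mcm6 chr1:128359768-128359855, minus strand).
Mcm5: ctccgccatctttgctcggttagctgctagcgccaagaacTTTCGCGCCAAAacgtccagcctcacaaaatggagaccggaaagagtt
Mcm6: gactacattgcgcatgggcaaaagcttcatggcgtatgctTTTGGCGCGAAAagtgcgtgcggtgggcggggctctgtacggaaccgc

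Cells close to the limits of the rule were compared with no test. At P9, 17 and 14 kept cells held 4 to 7 border-macrophage UMIs, and these had 39885 and 41984 CPM of Apoe (unscaled) and 1678 and 1888 CPM of P2ry12. The 2 and 11 cells left out with 8 to 11 such UMIs had 92996 and 70792 CPM of Apoe and 998.2 and 2263 CPM of P2ry12. Across the mitosis limit, P9 cells with 0 mitosis UMIs held 331.4 and 326.2 CPM of Stmn1, those with 1 UMI 515.5 and 549.8 CPM and those with 2 or more 1701 and 1797 CPM. For P2ry12 the levels were 4480 and 4471, 3847 and 4070, and 3293 and 3338 CPM in the same order. The cells just outside the mitosis limit thus lay between the other groups for both genes.

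Growth factor and PI3K-mTOR signalling genes, which couple nutrients to cell growth, were more often higher than lower. Of 28 tested, 14 were higher and 4 lower (median 0.42). Ddit4, also called REDD1, an inhibitor of mTORC1 induced by stress and glucocorticoids (chr10:59949669-59951834, minus strand, GRCm38), rose from 11.7 and 13.1 CPM to 197 and 217 CPM (4.06 ± 0.11, adjusted p = 1.4e-11). It was found in 0.87% and 0.88% of thinned P9 cells, 17.8% and 20.2% of thinned P28 cells and 4.8% of the leukocyte-marker cells (0.6% to 16.2%). Sgk1, a kinase downstream of PI3K, rose from 124 and 129 to 355 and 362 CPM (1.51 ± 0.06, adjusted p = 5.3e-10). Pik3cd, a catalytic subunit of PI3K, did not pass (40.7 and 38.7 CPM at P9, 45.9 and 41.6 CPM at P28).

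Interferon-stimulated genes, which answer type I interferon, were higher at P28 at low levels. Of 28 tested, 21 were higher and 2 lower (median 0.88). Ifitm3, which blocks virus entry, rose from 25 and 43.3 to 114 and 109.8 CPM (1.73 ± 0.19, adjusted p = 5.5e-06), and Isg15, a ubiquitin-like protein, from 9.66 and 9.81 to 17.8 and 31.6 CPM (1.34 ± 0.26, adjusted p = 0.00078). Bst2, the most abundant member that did not pass, stood at 217 and 208 CPM at P9 and 197 and 198 CPM at P28. Without the cells of other-type markers 16 of 27 were higher (median 0.63), with 0 UMIs of 10 genes of other cell types 13, and among genes at 10 CPM or more 12. The 5% of cells with most interferon-stimulated UMIs held 28.1% and 31.0% of them at P9 and 38.3% and 39.7% at P28, and 53.4% to 56.5% of thinned cells in the 4 libraries held none.

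The core of the interferon-stimulated response element, 2 GAAA blocks with any 2 bases between them, was found on either strand before 12 of 23 genes of the list with a promoter in the table, against 3.46% of 27025 genes. Ifit1, Ifit3, Isg15 and Rsad2 are shown because they were higher at P28, Bst2 because it holds the element and did not pass. Ifit1, Ifit3 and Rsad2 were chosen for display after their values were seen, with log2 fold changes of 2.22 ± 0.33, 1.75 ± 0.34 and 1.53 ± 0.42 (adjusted p = 9.4e-05, 0.00085 and 0.0096). Capitals mark the matches, which overlap in Isg15 and Bst2, and the windows are Ifit1 chr19:34640745-34640834, plus strand, Ifit3 chr19:34583333-34583422, plus strand, Isg15 chr4:156200847-156200936, minus strand, Rsad2 chr12:26456523-26456612, minus strand and Bst2 chr8:71537553-71537642, minus strand.
Ifit1: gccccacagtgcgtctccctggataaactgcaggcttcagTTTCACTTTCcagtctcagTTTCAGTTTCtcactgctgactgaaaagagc
Ifit3: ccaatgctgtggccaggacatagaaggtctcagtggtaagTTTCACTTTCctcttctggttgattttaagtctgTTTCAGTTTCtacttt
Isg15: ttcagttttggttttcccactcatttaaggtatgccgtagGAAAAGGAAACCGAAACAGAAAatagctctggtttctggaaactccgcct
Rsad2: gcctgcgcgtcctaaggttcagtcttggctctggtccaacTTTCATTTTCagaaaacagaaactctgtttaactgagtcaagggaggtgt
Bst2: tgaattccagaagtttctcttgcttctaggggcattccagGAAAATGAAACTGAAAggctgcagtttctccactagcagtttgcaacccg

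MHC class II presents peptides to T cells and is low in healthy microglia. Of 12 tested genes of its pathway, 10 were higher and none lower (median 1.30), without the cells of other-type markers 8 were higher, and without the first P9 library 6. The median was 0.62 without the second P28 library and 0.54 with 0 UMIs of 10 genes of other cell types. The classical chain H2-Ab1 and the invariant chain Cd74 rested on 1 library. Cd74 stood at 52.8 and 68.3 CPM at P9 and 64.4 and 328 CPM at P28. H2-Ab1 stood at 17.4 and 21 CPM at P9 and 14.4 and 104 CPM at P28. Both passed the test (Cd74 1.70 ± 0.49, adjusted p = 0.012; H2-Ab1 1.63 ± 0.60, adjusted p = 0.04), yet the first P28 library lay between the P9 libraries for Cd74 and below both for H2-Ab1. Without the second P28 library the values were 0.12 for Cd74 (adjusted p = 0.55) and -0.38 for H2-Ab1 (adjusted p = 0.17), and with 0 UMIs of those 10 genes 0.04 and -0.23 (adjusted p = 0.88 and 0.48). The chaperone chains H2-Oa and H2-Ob, in contrast, were higher in both P28 libraries. H2-Oa rose from 33.6 and 31.2 to 87.8 and 77.1 CPM (1.34 ± 0.09, adjusted p = 7.7e-08) and H2-Ob from 9.66 and 8.66 to 23.4 and 25.6 CPM (1.41 ± 0.17, adjusted p = 1.6e-05). Of 21 tested MHC class I genes, 11 were higher and 5 lower, and B2m, its light chain, did not pass (3638 and 3681 CPM at P9, 3689.6 and 3659.5 CPM at P28).

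The list of galectins, annexins and S100 genes shares members with the neutrophil markers. Of 22 tested, 10 were higher and 8 lower, and without the cells of other-type markers 5 were higher and 9 lower. S100a8, a neutrophil calcium-binding protein, stood at 1.03 and 51.4 CPM at P9 and 688 and 232 CPM at P28. Its partner S100a9 stood at 0.863 and 30 CPM at P9 and 420.5 and 147 CPM at P28. For both the second P9 library was far above the first and below both P28 libraries. In that P9 library 1 cell held 51.0% of the UMIs of the neutrophil list. Its highest single-cell counts were 255 for S100a8 and 147 for S100a9. The difference passed in edgeR (adjusted p = 0.0031 and 0.0018) and not in DESeq2 (adjusted p = 0.40 and 0.38). The neutrophil granule gene Ngp had no UMI at P9 and 95.9 and 37.7 CPM at P28, in libraries where most UMIs of the neutrophil list lay in the few cells described above. Without the cells of other-type markers, 6 of the 7 neutrophil markers then tested were still higher (median 4.32, against 4.26 over 9 with those cells). A UMI of the neutrophil list was found in 8.20% and 8.36% of thinned P9 cells and 23.6% and 21.5% of thinned P28 cells.

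Signals and sensors of inflammation changed gene by gene. Among chemokines and their receptors, 7 of 17 tested were higher and 5 lower. Ccl9 rose from 198 and 208 to 562 and 597 CPM (1.51 ± 0.06, adjusted p = 5.3e-10) and Cxcl16, a membrane-bound chemokine, from 22.3 and 26.4 to 65.2 and 73.9 CPM (1.52 ± 0.12, adjusted p = 3.3e-07). Ccr1, a receptor of CC chemokines, fell from 136 and 128 to 39.1 and 39.1 CPM (-1.75 ± 0.11, adjusted p = 3.3e-08). Of 14 tested toll-like receptor genes, 6 were higher and 5 lower. Cd14, the co-receptor for lipopolysaccharide, rose from 171 and 174 to 297 and 311 CPM (0.82 ± 0.06, adjusted p = 2.2e-07), while Tlr4 did not pass (25.5 and 26.7 CPM at P9, 29.7 and 27 CPM at P28). Of 22 tested NF-kB and cytokine genes, 10 were higher and 4 lower.

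Immediate early genes, which respond within minutes to stimuli and to tissue dissociation, were more often lower than higher at P28 in the summed counts. Of 30 tested, 16 were lower and 5 higher (median -0.33). Fosb, an AP-1 subunit, fell from 52.3 and 62.1 to 14.4 and 15.5 CPM (-1.93 ± 0.15, adjusted p = 2.5e-07). Klf2, a factor of quiescence, fell from 330.0 and 348 to 107 and 91.3 CPM (-1.77 ± 0.11, adjusted p = 2.9e-08). The ST2 Het P9 libraries, at 529 and 610.1 CPM of Klf2, were higher still. Junb and Jund did not pass. Per cell the median share was 0.2% of UMIs in all 4 libraries, and the P28 cell had the larger share in 55.6% to 56.4% of pairs of a P9 and a P28 cell, with ties shared equally. The list was less uneven at P28: 14.98% and 16.7% of thinned P9 cells and 7.91% and 8.12% of thinned P28 cells held none of it, and the top 5% of cells held 37.5% and 39.9% of its UMIs at P9 and 32.6% and 33.3% at P28.

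Among genes outside all lists, the largest rises at 100 CPM or more were those of Thrsp, from 12.2 and 9.04 to 104 and 102 CPM (3.26 ± 0.11, adjusted p = 1.4e-10), and Nav2, from 23.6 and 20.8 to 127 and 122 CPM (2.48 ± 0.12, adjusted p = 3.3e-09). Thrsp is known as a regulator of fatty acid synthesis in liver. Cd34, a sialomucin of stem and endothelial cells, rose from 25 and 18.7 to 105 and 109 CPM (2.28 ± 0.10, adjusted p = 1.4e-09), in libraries where the summed endothelial markers were lower at P28. Which cells held the Cd34 UMIs was not tested. Lag3, an inhibitory receptor known from T cells, rose from 144 and 135 to 414 and 390.2 CPM (1.53 ± 0.08, adjusted p = 3.1e-09). After Gpx3, the largest falls were those of Igfbp4, a binding protein of insulin-like growth factors, from 533 and 550.2 to 65.3 and 63.7 CPM (-3.07 ± 0.06, adjusted p = 1.3e-12), and Dab2. Emp3, Tpm4 and the cold-induced RNA-binding protein Rbm3 fell by 2.27, 1.89 and 1.87 on the log2 scale.

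Per cell, some of these differences separated nearly all cells and others only shifted shares. If 1 thinned cell is drawn from a P9 library and 1 from a P28 library, the P28 cell had the larger share of Cst3 UMIs in 98.7% to 98.8% of pairs over the 4 combinations of libraries. For the nuclear transcript Malat1 the range was 87.9% to 91.0%, for Tmem119 78.0% to 78.9% and for P2ry12 53.9% to 55.7%. In the other direction, the P28 cell was higher in 5.4% to 10.1% of pairs for ribosomal proteins, 23.3% to 23.96% for Apoe and 22.5% to 25.5% for the respiratory complexes. For mitochondrially encoded genes, whose share the rule caps, the range was 18.4% to 19.4%. Without thinning, a UMI was found in 89.5% and 92.2% of P9 cells and 99.1% and 98.8% of P28 cells for Tmem119. For Ddit4 the unthinned shares were 4.03% and 4.48% at P9 and 35.8% and 37.4% at P28. For the genes that fell, the unthinned shares were 97.1% and 97.3% at P9 and 64.6% and 63.0% at P28 for Apoe, and 33.8% and 36.8% at P9 and 0.25% and 0.24% at P28 for Gpx3. Of the 42 thinned leukocyte-marker cells, 1 held a Gpx3 UMI and 0 a Upk1b UMI (exact 95% upper limits 12.6% and 8.41%). These percentages describe cells, which are not replicates.

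**Figure D4:**
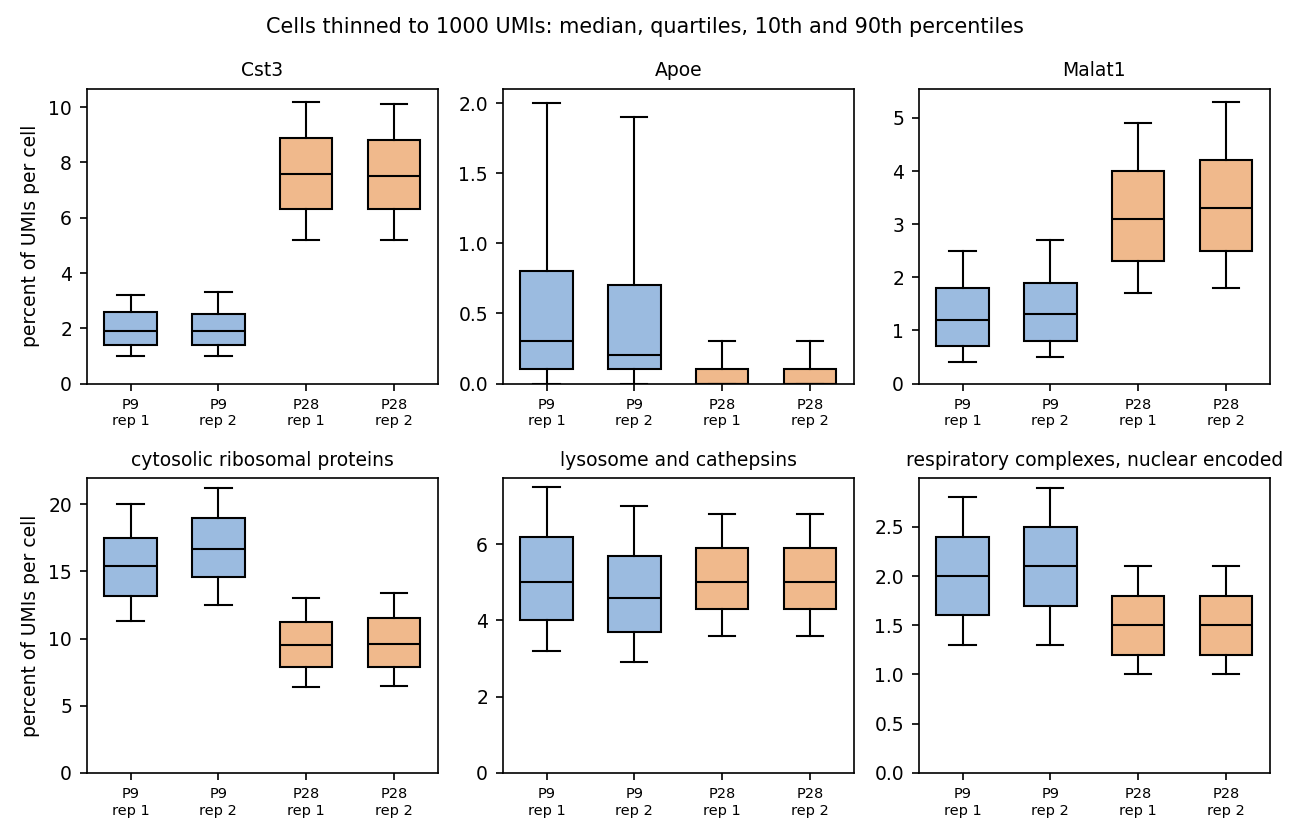
Percent of the UMIs of a cell (vertical, from 0) taken by 3 genes and 3 gene lists, after each cell was thinned to 1000 UMIs, for 1609 and 1363 P9 cells and 2832 and 2882 P28 cells by library. Boxes show the median and quartiles and whiskers the 10th and 90th percentiles. For Cst3 the 10th percentile at P28 (5.2%) is above the 90th at P9 (3.2% and 3.3%), while the lysosomal list overlaps throughout.

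The choice of cells moved some lists and left others in place. With dividing cells kept, 3171 of 11709 genes tested were higher and 3015 lower. With cells of any replication UMI left out, 1556 of 9195 were higher and 1416 lower. That step left fewer P9 cells, 607 and 515 against 1614 and 1363. The median of chromatin genes was -1.24 with dividing cells kept. It moved from -0.91 to -0.56 when the replication cells were left out. That step leaves out cells by UMIs of 13 replication and S-phase genes, so it bears directly on the DNA replication list, of which 12 members were then tested (median -0.79) against 30 before (-2.89). These medians cover different members and are not compared. The medians of ribosomal proteins (-0.83 to -0.76), homeostatic genes (0.41 to 0.42) and TGF-beta signalling (0.64 to 0.65) stayed close. That of mitochondrially encoded genes, whose share the rule caps, went from -0.68 to -0.67. The median of the phagocytic and disease-associated state was -0.26 over 25 members and -0.60 over the 23 then tested, 12 of them lower. These medians also cover different members and are not compared. With the cells unchanged and only genes at 10 CPM or more, the median of this list was -0.59. Among cells with no UMI of those 13 genes, 68 of 81 ribosomal protein genes and 57 of 77 respiratory genes were still lower. Of all 9195 genes tested in these cells, 1416 were lower.

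**Figure D5:**
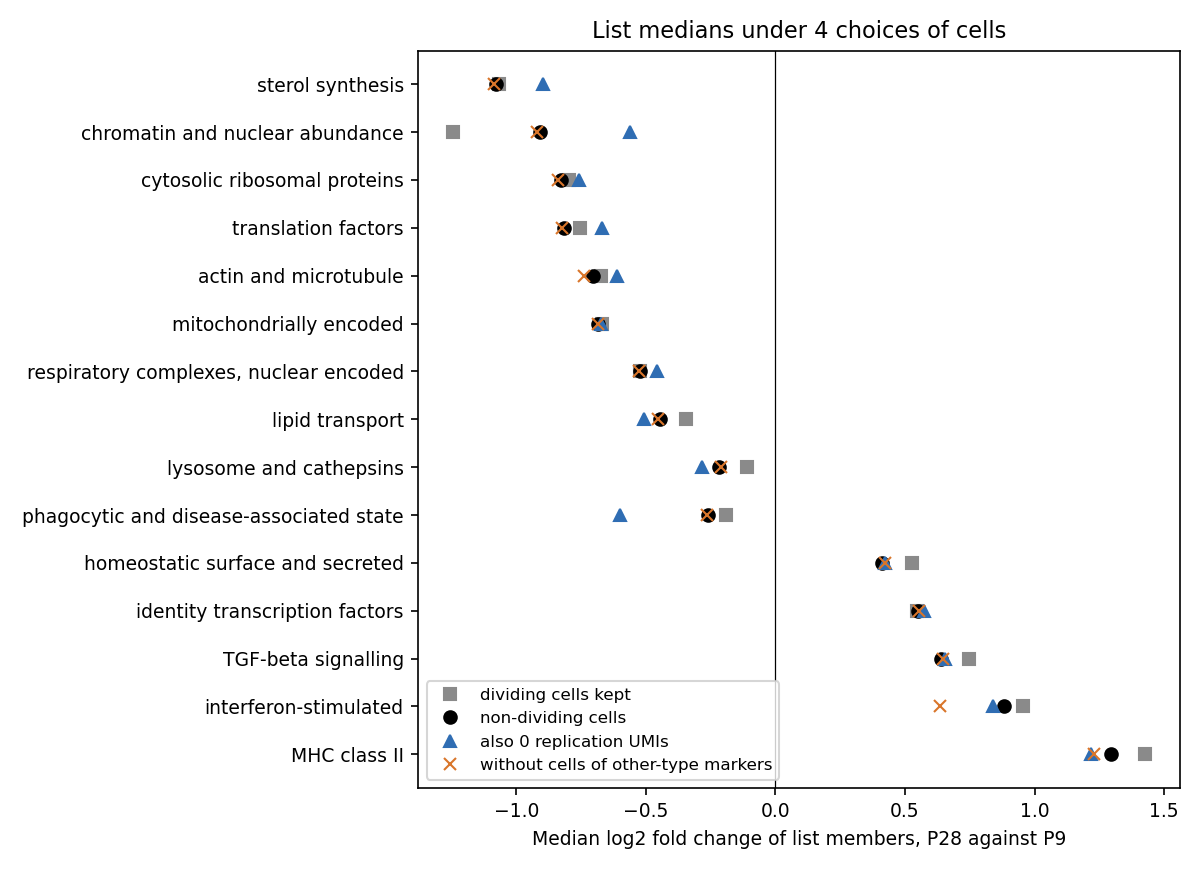
Median log2 fold change (horizontal), P28 against P9, of the tested members of 15 lists under 4 choices of cells: dividing cells kept (squares), the non-dividing cells described here (circles), cells with replication UMIs also left out (triangles), and cells of other-type markers left out (crosses). The symbols lie close for most lists. For chromatin genes they lie apart, at -1.24 with dividing cells kept, -0.91 here and -0.56 with replication cells left out. For interferon-stimulated genes they lie at 0.96 with dividing cells kept, 0.88 here and 0.63 without cells of other-type markers, the last over 27 members against 28. Those of the phagocytic state also lie apart (-0.26 against -0.60), but they cover 25 and 23 members and are not compared.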

How the data were processed

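UMI counts per gene and barcode were used as deposited; they came from droplet 3' single-cell libraries processed with Cell Ranger on mm10, per the submitters' processing notes, while its version and gene annotation are not stated there. Other processed files of the series were not used here. Counts of the chosen cells were summed per library and tested with edgeR 4.0.16 (R 4.3.3; filterByExpr, TMM scaling, quasi-likelihood test, Benjamini-Hochberg adjustment over all genes) with all 8 droplet libraries in 1 fit, and the script was tested on simulated data. CPM values are TMM-scaled unless called unscaled. Each standard error (SE) was taken as the absolute log2 fold change over the root of F.

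The cells, gene lists and comparison were chosen with earlier results of these data known. Named genes are, per list, up to 4 called members with the largest change at 20 CPM or more and up to 2 abundant members that did not pass; outside lists, the largest changes at 100 CPM or more; and genes chosen for levels per cell; some of these are not reported here. Genes shown by a promoter, and comparisons with border macrophages and leukocyte-marker cells, were chosen after values were seen. With 2 libraries per age the smallest exact two-sided permutation p is 0.333, so p-values rest on the fit across genes. No label says that replicate numbers pair the libraries. Deviations of the first P9 and first P28 library from their age means were not correlated (r = -0.0054 across genes). With 2 libraries per age this cannot decide whether they are paired. No doublet caller was run; the limits on border and mitosis genes were the filters on mixed cells. Cells were thinned with Python 3.11.15 and numpy 2.4.6; intervals are exact Clopper-Pearson. Alternatives, among them DESeq2 1.42.0, are given in the closing section. Gene positions are from GENCODE M21 and promoters from RefSeq.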

Additional observations from a re-analysis of the deposited data

How the results depend on the processing

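The 2562 genes higher and 2494 lower became 1556 and 1416 of 9195 tested when cells with replication UMIs were left out. With DESeq2, 1341 were higher and 1759 lower. Scaling by total UMIs gave 3184 higher and 2076 lower, which moved the share higher among calls from 50.7% to 60.5% and the median of all genes from 0.05 to 0.14. Leaving out 1 library at a time gave 1852 to 2070 higher and 1881 to 2107 lower. The replicate block among the 4 wild-type libraries gave 2593 higher and 2877 lower, against 2487 and 2796 without it. No label says that the replicate numbers pair the libraries. Members higher in TGF-beta signalling were 7 with DESeq2 and 7 to 10 over single libraries left out; those of MHC class II were 6 with DESeq2, 6 without replication cells and 6 to 10 over single libraries. Interferon-stimulated members higher were 12 at 10 CPM or more, 11 without replication cells, 13 with 0 UMIs of other cell types and 12 with DESeq2. DNA replication members lower were 5 without replication cells, where fewer were tested.

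Direction turned for Tyrobp (0.13) and Sirpa (0.13) with dividing cells kept, for Rps29, Ndufa3 and Snrpg over single libraries left out (-0.44 to 0.52, -0.34 to 0.31 and -0.56 to 0.62, the higher value without the second P9 library), for H2-Ab1 and H2-Eb1 likewise (-0.38 to 2.47 and -1.63 to 3.08, the lower value without the second P28 library), for H2-Ab1 (-0.23) with 0 UMIs of other cell types, and for Plac8 (-0.74) and Itga4 (-1.49) without cells of other-type markers, an alternative chosen after seeing the data. For these the cause was not tested. Shares of cells with a UMI moved with depth. Thinned to 2000 UMIs and not thinned, the difference P28 minus P9 in percentage points was 16.1 and 8.07 for Tmem119, 28.7 and 32.3 for Ddit4, -28.8 and -33.4 for Apoe, -20.6 and -33.7 for Mrc1, and -22.6 and -35.1 for Gpx3.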

Other observations

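Ion channels and transporters were more often higher at P28, 11 of 26 tested higher and 3 lower. Trpm2, a calcium channel opened by oxidative stress, rose from 3.97 and 3.85 to 23.5 and 28.9 CPM (log2 fold change 2.74 ± 0.20, edgeR adjusted p = 1.2e-07). Slc1a3, a glutamate transporter best known from astrocytes, rose from 45.9 and 43.7 to 174 and 177 CPM (1.97 ± 0.08, adjusted p = 7.8e-10), in libraries where the summed astrocyte markers were at most 10.0 CPM. Which cells held the Slc1a3 UMIs was not tested. Hvcn1, a proton channel, rose from 75.2 and 69.6 to 143 and 132 CPM (0.93 ± 0.08, adjusted p = 5.3e-07). Iron and antioxidant genes went the other way, with 17 of 29 lower and 6 higher. Ftl1, the ferritin light chain, fell from 6330.5 and 6369.7 to 3270.2 and 3295 CPM (-0.95 ± 0.04, adjusted p = 3.2e-10), and Prdx1, a peroxide-reducing enzyme, from 770.4 and 753 to 364 and 373 CPM (-1.05 ± 0.05, adjusted p = 3.0e-09).

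Rps29, Snrpg and Ndufa3 differed more between the P9 libraries than between the ages. Rps29 stood at 3843 and 7436 CPM at P9 and 5370.1 and 5630.5 CPM at P28, Snrpg at 111 and 250.1 CPM at P9 and 169 and 171 CPM at P28, and Ndufa3 at 211 and 329 CPM at P9 and 255 and 268 CPM at P28. In each the second P9 library was the highest of the 4, and these genes were picked after their values were seen.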
